A study of Mus musculus with 25 samples.

Results

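The metabotropic glutamate receptors of the CA1 region were described through 6 genes, Grm5, Grm2, Grm3, Grm4, Grm7 and Grm8. Their members were all probe sets that the array's annotation assigned to 1 of these genes alone, which gave 9 of the 45101 probe sets, and 6 of the 18194 named genes, on the Affymetrix Mouse 430 2.0 array. Grm5 had 2 probe sets, Grm7 had 3, and each of the other genes had 1. A further probe set that the annotation assigned to both Grm2 and Gm28111 was left out. The arrays compared 11 handled with 14 non-handled mice, all female and of the inbred strain Balb c/J, with 1 array per mouse. Handling was a daily maternal separation of 15 min, given to the handled litters in the morning between day 1 and day 14 after birth, and non-handled litters received none. The mice went through behavioral tests when 8 weeks old, and CA1 was dissected from hippocampal slices 2 weeks later. RNA/DNA columns were used for the RNA of 17 mice (7 handled, 10 non-handled), and Trizol, a phenol reagent, for that of 8 mice (4 handled, 4 non-handled). The study changed from Trizol to columns within the experiment. Extraction method therefore cannot be told apart from any other difference between the column and the Trizol mice. Because handling was given to whole litters and the litter of each mouse was not given, the p-values below treat mice as independent.

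Metabotropic glutamate receptors are G-protein coupled receptors that change neuronal excitability and transmitter release more slowly than the ion channels opened by glutamate. Group I receptors couple to Gq and phospholipase C and sit mainly on postsynaptic membranes, while group II and group III receptors couple to Gi/o, lower cyclic AMP and mostly act presynaptically to reduce release. In the hippocampus Grm5 is a group I receptor of CA1 pyramidal neurons, Grm3 is found on astrocytes as well as neurons, Grm2 is known from the mossy fibers of dentate granule cells, and Grm7 is placed in the active zone of Schaffer collateral terminals.

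Promoter sequence is shown for Grm3 and Grm7, which each had a probe set called higher in handled mice and a promoter window at hand, and for Grm2, the other group II receptor. The windows are from RefSeq (GRCm38.p6), run 5′ to 3′ from 250 bases before to 50 bases after a transcription start, and lie on chr5:9725303-9725602 (minus strand) for Grm3, chr6:110645262-110645561 (plus strand) for Grm7 and chr9:106656060-106656359 (minus strand) for Grm2. Capitals mark the GC box GGGCGG, a motif bound by Sp1. Of the 6 genes, 4 had a window. Grm7 had a second that overlaps the one shown, and Grm8, which was not called, had 3 that are not shown.
Grm3: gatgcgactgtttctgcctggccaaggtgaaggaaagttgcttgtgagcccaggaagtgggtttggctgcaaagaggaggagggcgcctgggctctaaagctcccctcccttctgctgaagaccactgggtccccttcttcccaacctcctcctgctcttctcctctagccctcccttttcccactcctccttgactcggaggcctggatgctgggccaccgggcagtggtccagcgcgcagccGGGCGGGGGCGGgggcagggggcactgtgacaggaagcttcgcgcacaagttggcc
Grm7: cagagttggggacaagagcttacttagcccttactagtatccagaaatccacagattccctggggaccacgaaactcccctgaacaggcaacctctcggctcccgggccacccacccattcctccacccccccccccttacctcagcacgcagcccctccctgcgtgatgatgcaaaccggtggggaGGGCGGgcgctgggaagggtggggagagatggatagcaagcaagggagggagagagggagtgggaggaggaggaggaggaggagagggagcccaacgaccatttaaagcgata
Grm2: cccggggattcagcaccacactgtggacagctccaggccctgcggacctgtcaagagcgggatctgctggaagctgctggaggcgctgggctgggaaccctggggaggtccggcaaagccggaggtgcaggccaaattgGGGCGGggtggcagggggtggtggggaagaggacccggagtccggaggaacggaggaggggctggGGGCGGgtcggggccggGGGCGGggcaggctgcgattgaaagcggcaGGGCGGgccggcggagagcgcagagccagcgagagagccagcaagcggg
The window of Grm3 held 2 GC boxes back to back, that of Grm7 held 1 and that of Grm2 held 4. Searched on both strands, GGGCGG was found in 35.7% of 32851 mouse promoter windows of the same length. The 3 windows held none of GCGTGGGCG (an EGR site, in 0.612% of windows), TGACGTCA (a cAMP response element, in 1.79%) or the E box CACGTG (in 7.15%). The TATA box, TATAAA, present in 13.6% of windows, was not in them either. The GC content was 63.7% for Grm3, 61% for Grm7 and 72% for Grm2, beside a median of 52.7% over all windows. These matches describe the letters of the windows alone.

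Signal was the linear MAS 5.0 value of each probe set, with each array scaled by 1 factor, and differences were fitted with limma on the log2 scale with handling and extraction as terms. A probe set was called when its p, adjusted by the Benjamini-Hochberg method for the 45037 probe sets tested, was under 0.05. The mean signal per array was 786 ± 23.1 in handled and 801 ± 47.9 in non-handled mice (SD, n = 11 and 14), and the log2 signals of any pair of arrays correlated between 0.806 and 0.919. The variance of natural-log signal within an array ran from 3.19 to 4.24 in handled and from 2.85 to 3.76 in non-handled mice. Over all probe sets the median handling difference was -0.15 on the log2 scale. It was -0.42 over the lower 50% of mean signal and +0.06 over the top 10%, so a difference at a bright probe set stood against another background than one at a dim probe set.

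Of the 9 receptor probe sets, 4 were higher in handled mice and none was lower. They were both probe sets of Grm5, the probe set of Grm3 and the brightest of Grm7. Over all probe sets, 3.58% were called higher and 7.93% lower. The 4 called probe sets all lay in the top 10% of mean signal, where 15.0% were called higher. This narrower background was chosen after the values were seen. At an unadjusted p under 0.05, 5 of the 9 were higher and 2 were lower, beside 8.43% higher and 19.5% lower over all probe sets. The count of calls fell to 2, the probe sets of Grm5, with RNA quality covariates, a constant prior or no extraction term. The median handling difference was +0.24 over the 9 probe sets. In bulk tissue, more cells of a type and more RNA per cell cannot be told apart.

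**Figure D1:**
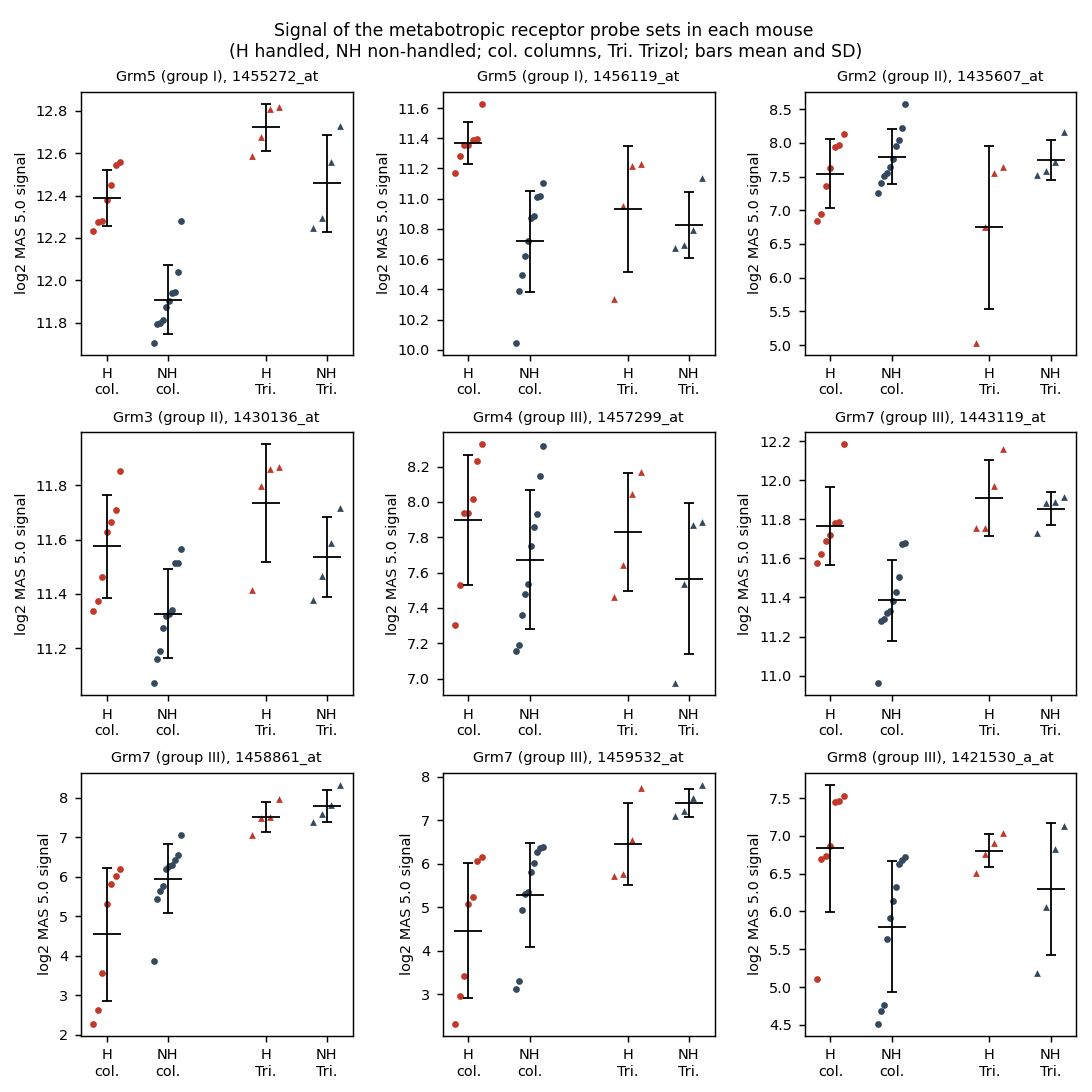
Log2 MAS 5.0 signal (vertical axis) of each receptor probe set in every mouse, 1 point per mouse, with handled (H) left of non-handled (NH) mice and column extraction (circles) left of Trizol (triangles); horizontal marks and bars are means and SD. At the Grm5 probe set 1456119_at the 7 handled column mice all lie above the 10 non-handled column mice, and at every other probe set these groups overlap.

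Among group I receptors, Grm5 was higher in handled mice at both probe sets. At 1455272_at the lowest, median and highest signals were 4819, 5970 and 7218 in handled mice, against 3339, 3931 and 6794 in non-handled mice. All 11 handled mice lay above the non-handled median, and 9 of the 14 non-handled mice lay below every handled mouse, although the ranges overlapped. The difference was +0.41 on the log2 scale (SE 0.073, 95% confidence interval 0.26 to 0.56), or 1.33-fold (1.20 to 1.47), with an adjusted p of 0.000430 in limma. With columns the signals were 4819, 5326 and 6040 in handled mice and 3339, 3790 and 4980 in non-handled mice. Of the 7 handled column mice, 4 exceeded every non-handled column mouse, and the difference within columns was +0.48 (0.31 to 0.65, adjusted p = 0.000611 in limma). With Trizol the 4 handled mice had 6143, 6555, 7174 and 7218, and the 4 non-handled mice had 4860, 5016, 6038 and 6794. These ranges overlapped, with 3 of the 4 non-handled mice below every handled mouse, and the difference was +0.27 (-0.05 to 0.58, adjusted p = 0.804 in limma).

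The other Grm5 probe set, 1456119_at, had 1292, 2489 and 3167 in handled mice and 1059, 1732 and 2256 in non-handled mice as lowest, median and highest signals. Handled mice were mostly the higher ones, with 9 of 11 above every non-handled mouse, but the handled mouse H131 was among the low values. The difference was +0.47 (SE 0.115, 0.24 to 0.71), or 1.39-fold (1.18 to 1.63), with an adjusted p of 0.00795 in limma. With columns the groups did not overlap, at 2304, 2617 and 3167 in handled mice and 1059, 1782 and 2203 in non-handled mice, and the difference was +0.65 (0.40 to 0.90, adjusted p = 0.00114 in limma). No other receptor probe set was without overlap in column mice, and the share of all probe sets without overlap is not given here. With Trizol the 4 handled mice had 1292, 1979, 2380 and 2399, against 1637, 1654, 1776 and 2256 in the 4 non-handled mice, with a difference of +0.11 (-0.30 to 0.51, adjusted p = 0.933 in limma). Here the groups overlapped, and H131 was below all 4 non-handled mice. The handling difference was 0.54 larger with columns than with Trizol by the interaction term (SE 0.23), with an unadjusted p of 0.0243 and an adjusted p of 0.615 in limma. At 1455272_at the interaction was +0.22 (adjusted p = 0.789 in limma).

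Group II held Grm3 and Grm2, and only Grm3 was called. Grm3, at 1430136_at, had 2585, 3244 and 3742 in handled mice and 2150, 2626 and 3364 in non-handled mice as lowest, median and highest signals. The groups overlapped, with 10 of 11 handled mice above the non-handled median and 4 above every non-handled mouse. The difference was +0.23 (SE 0.0756, 0.08 to 0.39), or 1.17-fold (1.06 to 1.31), with an adjusted p of 0.0420 in limma. With columns the signals were 2585, 3162 and 3704 in handled mice and 2150, 2561 and 3027 in non-handled mice, a difference of +0.25 (0.06 to 0.44, adjusted p = 0.0737 in limma). With Trizol the handled mice had 2729, 3562, 3719 and 3742, and the non-handled mice had 2660, 2830, 3079 and 3364, a difference of +0.20 (adjusted p = 0.825 in limma). In both extraction groups the ranges overlapped, and 3 of the 4 handled Trizol mice were above all 4 non-handled ones. Neither group passed the threshold alone, and the call on all mice was lost when any of 16 mice was left out (H108, H109, H117, H118, H123, H126, H130, H131, NH138, NH146, NH155, NH156, NH162, NH163, NH165 or NH166), with differences of 0.20 to 0.27 and adjusted p-values of 0.0216 to 0.0906 over all 25 such fits. It was also lost with quantile normalization (+0.18), scaled arrays (+0.15), array weights, a constant prior, RNA quality covariates (+0.20) or no extraction term, with adjusted p-values of 0.0557 to 0.231 in limma.

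Grm2, at 1435607_at, was not called, at 32.8, 188 and 279 in handled mice and 152, 204 and 383 in non-handled mice. The groups overlapped, and 4 of the 11 handled mice were below every non-handled mouse. The estimate was -0.49 (SE 0.232, -0.97 to -0.02), or 0.7098-fold, with an unadjusted p of 0.0402 and an adjusted p of 0.158 in limma. The low end was set by the handled Trizol mouse H130 at 32.8, and the other handled Trizol mice had 107.9, 188 and 201, against 185, 191, 210 and 287 in non-handled Trizol mice. Without H130 the estimate was -0.30 (adjusted p = 0.267 in limma). Within columns the estimate was -0.25 and within Trizol -0.997.

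**Figure D2:**
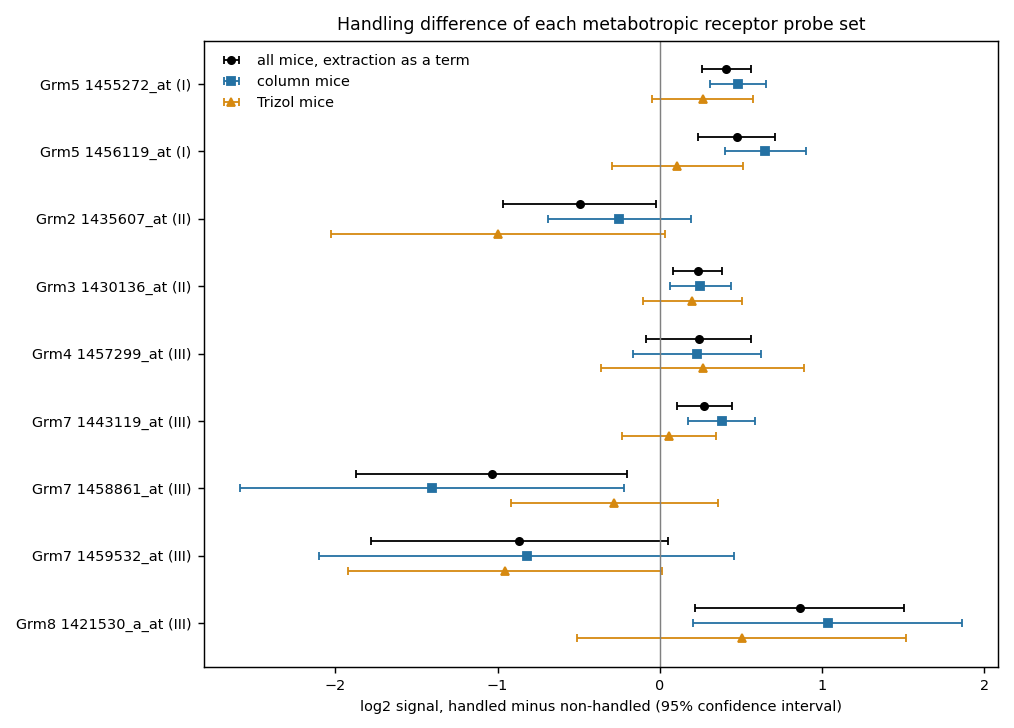
Handling difference of each receptor probe set (rows, with the receptor group in brackets) as log2 signal, handled minus non-handled; points are limma estimates in all mice, in column mice and in Trizol mice, and bars are 95% confidence intervals. The intervals of both Grm5 probe sets, Grm3, Grm7 1443119_at and Grm8 lie above 0 in all mice and in column mice, that of Grm7 1458861_at lies below 0 in both, and all 6 cross 0 in Trizol mice.

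Group III held Grm4, Grm7 and Grm8, with 5 probe sets, of which 1 was called. Grm7 was measured by 3 probe sets that ran in different directions. The brightest, 1443119_at, had 3059, 3461 and 4657 in handled mice and 1993, 2832 and 3857 in non-handled mice as lowest, median and highest signals. All 11 handled mice lay above the non-handled median, and 8 of the 14 non-handled mice lay below every handled mouse. The difference was +0.27 (SE 0.083, 0.11 to 0.44), or 1.21-fold (1.08 to 1.36), with an adjusted p of 0.0286 in limma. With columns the signals were 3059, 3378 and 4657 in handled mice and 1993, 2620 and 3278 in non-handled mice, a difference of +0.38 (0.18 to 0.59, adjusted p = 0.0144 in limma). With Trizol the handled mice had 3453, 3461, 4010 and 4579 and the non-handled mice 3398, 3779, 3793 and 3857, a difference of +0.06 (-0.23 to 0.35, adjusted p = 0.952 in limma). Both extraction groups overlapped, and the interaction was +0.33 (adjusted p = 0.692 in limma). Without the handled mouse H109, the highest of all, the difference was +0.22 and no longer passed the threshold (adjusted p = 0.0727 in limma). The call was also lost with quantile normalization (+0.21), scaled arrays (+0.17), a constant prior, RNA quality covariates (+0.20) or no extraction term, with adjusted p-values of 0.0634 to 0.193 in limma.

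The other Grm7 probe sets had lower signals in most handled mice but were not called. At 1458861_at the lowest, median and highest signals were 4.84, 64.6 and 250 in handled mice, against 14.6, 81.6 and 321 in non-handled mice, and the groups overlapped. The estimate was -1.04 (SE 0.411, -1.87 to -0.20, unadjusted p = 0.0167, adjusted p = 0.0936 in limma). At 1459532_at the signals were 5.003, 52.8 and 215 in handled mice and 8.69, 70.5 and 225 in non-handled mice, again overlapping, with an estimate of -0.86 (SE 0.45, -1.78 to 0.05, adjusted p = 0.207 in limma). Among probe sets of like brightness (bins of 2%), the median was -0.28 and the 10th percentile -0.98 for 1458861_at, which lay just below it, and the median was -0.35 and the 10th percentile -1.17 for 1459532_at. Whether the Grm7 probe sets differed from each other in their handling difference was not tested.

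Grm8, a presynaptic receptor of perforant path terminals, was not called at 1421530_a_at, although its estimate was the highest of the 9. Its lowest, median and highest signals were 34.5, 117.1 and 184 in handled mice, against 22.9, 68.6 and 140 in non-handled mice. The ranges overlapped, and 10 of 11 handled mice lay above the non-handled median. The estimate was +0.86 (SE 0.316, 0.22 to 1.51), or 1.82-fold (1.16 to 2.84), with an unadjusted p of 0.0103 and an adjusted p of 0.0703 in limma. It was +1.03 within columns and +0.50 within Trizol. Grm4, at 1457299_at, had 158, 245 and 321 in handled mice and 125.7, 200 and 318 in non-handled mice, with nearly complete overlap. Its estimate was +0.24 (SE 0.159, -0.08 to 0.56, adjusted p = 0.335 in limma).

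Set side by side, group I had 2 of 2 probe sets called higher, group II 1 of 2 and group III 1 of 5, with median handling differences of +0.44, -0.13 and +0.24. The log2 signal averaged over the brightest probe set of each receptor gave 12.23, 12.54 and 12.82 for group I in handled mice (lowest, median and highest), against 11.71, 11.94 and 12.73 in non-handled mice. For group II it was 8.45, 9.53 and 9.90 in handled mice and 9.29, 9.53 and 9.96 in non-handled mice. The group II medians were alike, since Grm3 and Grm2 had estimates of opposite sign. For group III it was 8.11, 8.88 and 9.11 in handled mice and 7.70, 8.36 and 8.86 in non-handled mice. The differences of these averages were +0.41 ± 0.0666 for group I, -0.13 ± 0.129 for group II and +0.46 ± 0.118 for group III (SE), given without a test because the members were chosen with results known. The group III average rests on estimates of +0.24 for Grm4, +0.27 for Grm7 and +0.86 for the uncalled Grm8, and leaves out the dim Grm7 probe sets. Over all 5 group III probe sets the mean handling difference was -0.11.

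**Figure D3:**
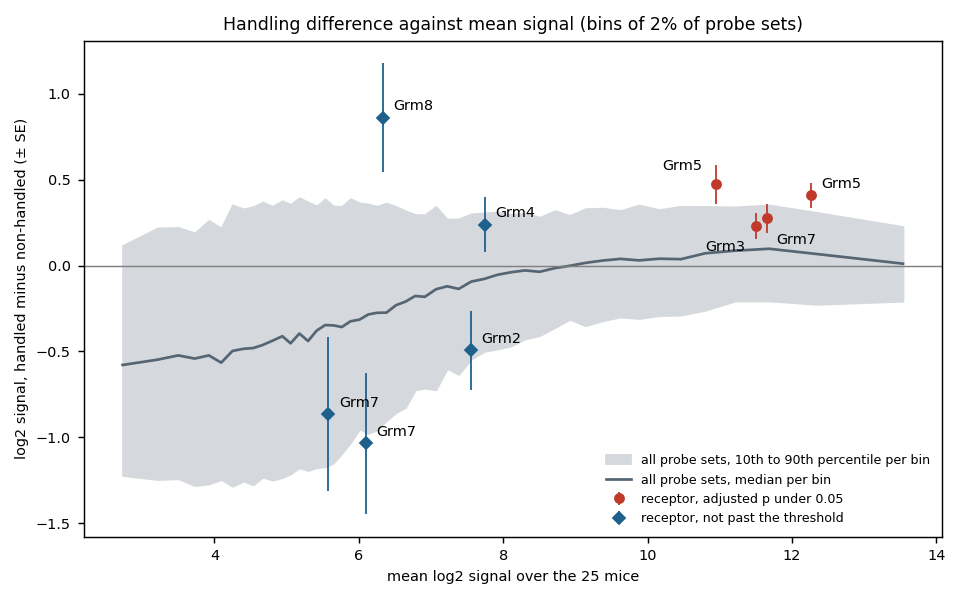
Handling difference (vertical axis, log2 signal, handled minus non-handled, bars SE) of the 9 receptor probe sets against mean log2 signal over the 25 mice (horizontal axis), over the median (line) and the range from the 10th to the 90th percentile (band) of all probe sets in bins of 2% of probe sets. The line mostly rises with signal up to a mean log2 signal of 11.7, where it is at +0.10, and falls to +0.01 in the brightest bin. Both Grm5 points and the Grm8 point lie above the band, and the Grm7 point at -1.04 lies just below it.

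Within the column mice alone, 3 of the 9 probe sets were called higher and none lower, the 2 of Grm5 and Grm7 1443119_at, where 4.36% of all probe sets were called higher and 7.65% lower. At an unadjusted p under 0.05, 5 were higher and 1 was lower, beside 9.39% higher and 18.7% lower over all probe sets. Within the Trizol mice alone none of the 9 was called, nor at an unadjusted p under 0.05, and 0% of all 45037 probe sets were called (6.37% at an unadjusted p under 0.05). The interaction of handling with extraction was called at none of the 9 (1 at an unadjusted p under 0.05), beside 0.0511% of all probe sets (7.47% at an unadjusted p under 0.05), so these data do not show that the handling difference of any receptor differed between extraction methods.

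Some receptors differed between extraction methods by as much as between handled and non-handled mice, or more. Between column and Trizol mice, 4 of the 9 probe sets were lower with columns and none was higher, beside 23.3% lower and 16.5% higher over all probe sets. At an unadjusted p under 0.05, 5 were lower and 0 higher, beside 27.1% lower and 18.7% higher. Grm5 1455272_at had 3339, 4208 and 6040 with columns, against 4860, 6349 and 7218 with Trizol, a difference of -0.45 (-0.61 to -0.29, adjusted p = 1.31e-05 in limma). The second Grm5 probe set was not called for extraction, at 1059, 2075 and 3167 with columns and 1292, 1878 and 2399 with Trizol, with a difference of +0.15 (-0.10 to 0.40, adjusted p = 0.378 in limma). Both overlapped between the extraction methods. Grm7 1443119_at had 1993, 3059 and 4657 with columns, against 3398, 3786 and 4579 with Trizol, a difference of -0.32 (-0.50 to -0.14, adjusted p = 0.00379 in limma). No Trizol mouse was in the lower part of that range.

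The largest extraction differences among the 9 were those of the dim Grm7 probe sets. At 1458861_at the column mice had 4.84, 56.1 and 133, against 133, 188 and 321 in Trizol mice, which is hardly any overlap, and the difference was -2.37 (-3.26 to -1.48, adjusted p = 3.13e-05 in limma). At 1459532_at the column mice had 5.003, 39.6 and 83.3 and the Trizol mice 52.8, 142 and 225, with a difference of -2.06 (-3.03 to -1.08, adjusted p = 0.000620 in limma). The extraction estimates of the uncalled probe sets were +0.40 for Grm2, -0.19 for Grm3, +0.09 for Grm4 (-0.22 with RNA quality covariates) and -0.25 for Grm8 (+0.19 with quantile normalization). Quantile normalization gave calls for Grm2 at +0.81, Grm3 at -0.30 and Grm4 at +0.47 (adjusted p = 0.0100, 0.00196 and 0.0197 in limma), and scaling of the arrays gave a call for Grm2 at +0.70 (adjusted p = 0.0293 in limma). The natural-log ratio of 3′ to 5′ Gapdh signal, a measure of RNA integrity and amplification length, averaged 0.893 with columns and 1.19 with Trizol. The same ratio for Actb averaged 1.280 with columns and 1.283 with Trizol. It reached 2.24 in a non-handled column mouse, against at most 1.32 in handled column mice and 1.47 in Trizol mice. This high value raises the column mean and also enters the fits with RNA quality covariates. Between handled and non-handled mice the means were 1.03 and 0.956 for Gapdh, and 1.23 and 1.32 for Actb. With the Gapdh and Actb ratios added to the fit as covariates, only Grm5 1455272_at of the 9 was called for extraction (-0.54), and the Grm7 probe sets were not called (adjusted p = 0.0882 to 0.894 in limma). Markers of CA1 pyramidal cells (5 of 5), astrocytes (6 of 6), oligodendrocytes (4 of 4), microglia (3 of 4) and interneurons (3 of 6) were called higher with columns, beside 23.7% of the brightest probe sets of all genes and 2335 of the 4504 probe sets in the top 10% of mean signal. Of 7 dentate granule markers, 1 was called higher and 2 lower with columns, and of 5 CA3 and CA2 markers 1 was called each way. Of 4 thalamus markers 1 was called lower and none higher, and no choroid plexus marker was called. Calls lower with columns stand beside 23.3% of all probe sets and 918 of the 4504 in the top 10% of mean signal. The share called lower among the brightest probe sets of all genes is not given here. The part of these marker differences in the receptor differences was not tested.

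**Figure D4:**
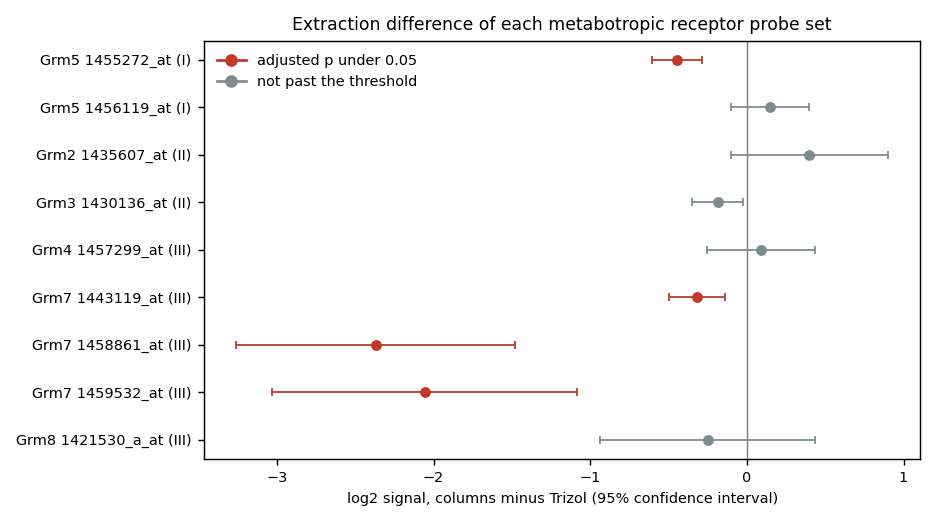
Extraction difference of each receptor probe set (rows, with the receptor group in brackets) as log2 signal, columns minus Trizol, with limma estimates as points and 95% confidence intervals as bars. The intervals of Grm7 1458861_at and 1459532_at lie furthest below 0.

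For lists of genes the brightest probe set of each gene was used, and over all genes 4.47% of these were called higher and 9.70% lower in handled mice. CA1 pyramidal markers were measured for 5 of 6 genes, with none called for handling. Their summed signal ran from 16839 to 37293 in handled mice and from 17450 to 38588 in non-handled mice. Astrocyte markers, of interest for Grm3, had 1 of 6 called higher (Aqp4, +0.32) and summed to 43413 to 63407 in handled mice and 39866 to 82470 in non-handled mice. Of 6 interneuron markers, 2 were called higher (Gad2 at +0.86 and Gad1 at +0.30) and 1 lower (Pvalb at -0.32), with sums of 13606 to 20228 in handled mice and 12061 to 17120 in non-handled mice. Of 7 dentate granule markers none was called, with sums of 8012 to 12050 in handled mice and 8256 to 11414 in non-handled mice. Calb1 was never under 6439 and made up most of each sum, and 3 of the 7 were in the lower 50% of mean signal. These sums therefore say little about the dimmer dentate markers. Of 5 matched CA3 and CA2 markers, 1 was called lower. Of 5 choroid plexus markers 2 were called lower (Folr1 at -0.86 and Clic6 at -0.63), with sums of 441 to 636 in handled mice and 519 to 3297 in non-handled mice. In this list 3 of the 5 were in the lower 50% of mean signal. None of 4 oligodendrocyte markers was called, and 1 of 4 microglia markers (P2ry12, +0.24) and 1 of 4 thalamus markers (Rora, +0.30) were called higher. The part of these markers in the handling differences of the receptors was not tested.

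Around the receptors, 52 of 63 listed genes of metabotropic receptor signalling had a probe set, taken as the brightest of each gene. Of these, 6 were higher and 8 lower in handled mice, with a median handling difference of +0.02. These counts stand beside 4.47% higher and 9.70% lower over the brightest probe sets of all genes, and 15.0% higher in the top 10% of mean signal. The genes with the smallest p among those higher were Map1b, a microtubule-associated protein made in dendrites after group I activation (+0.52, adjusted p = 0.0143 in limma), Rgs2, which speeds the shut-off of Gq (+0.24, adjusted p = 0.0175), the G protein gamma subunit Gng2 (+0.61, adjusted p = 0.0176) and the inhibitory alpha subunit Gnai3 (+0.30, adjusted p = 0.0188). Those with the smallest p among the lower genes were Gng3, another gamma subunit (-0.56, adjusted p = 0.00107 in limma), Ptpn5, the phosphatase STEP that is translated on group I activation (-0.35, adjusted p = 0.0166), Rgs14, a regulator of Gi enriched in CA2 (-0.29, adjusted p = 0.0299), and the calcium-stimulated adenylyl cyclase Adcy1 (-0.30, adjusted p = 0.0323). Both directions thus occurred among G protein subunits and among regulators of G protein signalling. Chosen after their values were seen, Plcb1, the phospholipase C of the Gq pathway in hippocampal neurons, was called higher at +0.25 (adjusted p = 0.0258 in limma), and the scaffold Homer1 (+0.03, adjusted p = 0.835) and the Gq subunit Gnaq (+0.03, adjusted p = 0.849) were not called.

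The receptors varied little together from mouse to mouse. After the mean of each handling by extraction group was removed, probe sets of the same gene correlated between 0.0136 and 0.309 over the 25 mice (4 pairs, median 0.0751), and probe sets of different genes between -0.378 and 0.438 (32 pairs, median -0.000488). The highest correlation between genes joined Grm5 1455272_at and Grm7 1443119_at, at 0.438, while the pair of Grm5 probe sets was at 0.0136. By the same measure, the genes most like the brightest probe set of each receptor among 19579 probe sets of 1 gene in the upper 50% of mean signal were Ints12, Acsl4 and Fpgt for Grm5 (0.896, 0.870 and 0.868) and Dclk1, Golph3 and Map1b for Grm7 (0.847, 0.841 and 0.836). For Grm3 they were Srp9, Tmem259 and Hdac5 (0.744, 0.706 and 0.705), for Grm2 Gpr26, Smyd1 and Gdap1l1 (0.796, 0.791 and 0.750), for Grm4 Braf, Kansl1l and Letm2 (0.743, 0.702 and 0.691) and for Grm8 Rab3c, N6amt1 and Lrrc49 (0.745, 0.670 and 0.668). These values come from the same 25 arrays and share their amplification and scaling. They are the highest among 19579 candidates for each receptor, and how high r would run by chance was not tested.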

How the data were processed

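CA1 tissue of 25 mice was measured on Affymetrix Mouse 430 2.0 arrays after double-round amplification, with all arrays hybridized in parallel. The deposited intensity values were made by the authors with the MAS 5.0 method of Affymetrix Expression Console, on a linear scale and with no normalization of the distribution. Here log2 of the signal was taken with no offset. Extraction method was read for each mouse from the label text, which names positions in the list of samples. Of 45101 probe sets, 64 controls were left out, and the remaining 45037 were fitted with limma 3.58.1 in R 4.3.3 (trended prior, two-sided, Benjamini-Hochberg adjusted over all), with handling and extraction as terms. The interaction was tested in a fit with their product. The 95% confidence intervals and p-values come from these fits. Since there is 1 value per probe set and mouse, the number of mice limits the precision. For handling, precision is limited further by the number of litters, which was smaller than that of mice. The SEs, intervals and p-values do not take litters into account.

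Probe sets were named from the platform annotation (34958 with 1 gene, 932 with several, 9211 with none), with symbols updated through gene identifiers. All 9 receptor probe sets were tested, and no filter on low signal was applied. Probe positions within transcripts were not analysed here. Levels of different probe sets are not comparable, and mean signal only places a probe set among all others by brightness. For the lists of signalling genes and of cell type markers (CA1 pyramidal, CA3 and CA2, dentate granule, astrocyte, interneuron, oligodendrocyte, microglia, choroid plexus and thalamus), the brightest probe set of each gene was used. Named signalling genes were those called for handling, up to 4 in each direction by smallest p, and named like genes were the 3 with the highest Pearson r. The members, lists and tests were chosen with earlier results of these data known. Alternatives were quantile normalization, scaling of arrays to 1 mean and variance, an added offset of 32, the upper 50% of mean signal, array weights, a constant prior, RNA quality covariates, no extraction term, each extraction group alone and leaving out each mouse. The fitting code was also run on simulated data with independent normal noise for each probe set and mouse. Those data held no litters and no handling shift tied to signal, so that run cannot show that the calls hold here. Figures were drawn with matplotlib 3.10.9.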

Additional observations from a re-analysis of the deposited data

Results flagged for a closer look

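A mouse stood far from the others of its handling and extraction group in 5 of 36 groups examined over the 9 probe sets, measured on log2 signal as its gap to the nearest mouse divided by the range of the group; the signals given beside each ratio are linear. Chance flags about 1 in 20 groups. For Grm3, the handled Trizol mouse H113 was low at 2729, with the nearest at 3562 (gap over range 0.843, 4 mice). For Grm7 1443119_at, the handled column mouse H109 was high at 4657, with the nearest at 3533 (0.657, 7 mice), and the non-handled Trizol mouse NH144 was low at 3398, with the nearest at 3779 (0.840, 4 mice). For Grm7 1458861_at, the non-handled column mouse NH163 was low at 14.6, with the nearest at 43.0 (0.489, 10 mice). For Grm8, the handled column mouse H116 was low at 34.5, with the nearest at 103 (0.655, 7 mice).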

How the results depend on the processing

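Of the 9 receptor probe sets, 4 were called for handling, and this count was 3 with quantile normalization, with scaled arrays, with array weights and in column mice alone, 2 with a constant prior, 2 with RNA quality covariates, 2 without the extraction term and 0 in Trizol mice alone. It ranged from 2 to 5 when 1 mouse was left out, and was 2 only without H109. Both Grm5 probe sets were called in 9 of 10 alternatives (not in Trizol mice alone) and in 25 of 25 fits without 1 mouse. Their size was less stable, from +0.27 to +0.48 at 1455272_at and from +0.11 to +0.65 at 1456119_at over the 10 alternatives. With scaled arrays 1455272_at was at +0.27 (adjusted p = 0.0254 in limma). With RNA quality covariates 1456119_at was at +0.38 (adjusted p = 0.0386 in limma). Grm3 was called in 2 of 10 alternatives and Grm7 1443119_at in 4 of 10. Grm8 was called with quantile normalization (+1.13, adjusted p = 0.0391 in limma), with scaled arrays (+1.14, adjusted p = 0.0313) and without H116 (+1.04, adjusted p = 0.0288) or NH147 (adjusted p = 0.0471). The median handling difference over all probe sets, -0.15, became +0.02 with quantile normalization and +0.03 with scaled arrays.

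The count called for extraction was 4, with 7 under quantile normalization (2 higher and 5 lower with columns) and 1 with RNA quality covariates, and was 4 to 5 without 1 mouse. The uncalled extraction estimate of Grm4 turned to -0.22 with RNA quality covariates and ranged from -0.00681 to 0.139 without 1 mouse, and that of Grm8 turned to +0.19 with quantile normalization and +0.0931 with scaled arrays. The cause of these changes was not tested. The interaction was called at 0 of the 9 in every alternative and in every fit without 1 mouse. With the filter on mean signal, Grm8 and Grm7 1458861_at and 1459532_at were not fitted. No paired analysis was possible because the labels number each mouse once and no number is shared between handled and non-handled mice.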

Other observations

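The probe set 1431344_at, which the annotation assigns to both Grm2 and Gm28111, had lowest, median and highest signals of 21.4, 83.0 and 154 in handled mice and 10.2, 71.1 and 184 in non-handled mice. The groups overlapped, and the handling difference was +0.20 (-0.65 to 1.05, adjusted p = 0.798 in limma).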
